A study of Homo sapiens with 6 samples.

Results

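Positions 4491 to 4700 of human 28S ribosomal RNA (rRNA) were taken from the deposited tables by their number alone, 210 of the 6939 positions of 18S and 28S rRNA. This stretch of the large ribosomal subunit begins at the A loop, which meets the acceptor end of the tRNA in the A site. It runs along the peptidyl transferase centre side of domain V and on into the sarcin-ricin loop. The sarcin-ricin loop belongs to the domain that follows, so the stretch is longer than the second part of domain V. Its sequence letters ACGAGAG, a conserved piece of that loop, occurred at 4602 to 4608, which is the only copy in 28S, and 0 times in 18S (given strand only). The stretch holds 59 uridines, 28.1% of its bases against 16.6% over both rRNAs. Of these, 11 are listed as pseudouridine (Ψ) and 1 as 3-methyluridine (m3U), and 11 positions are listed as 2′-O-methylated. The base in the tables was the listed one at all of them.

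The RNA was total RNA longer than 200 nt from HEK293T/17, a human embryonic kidney cell line kept in DMEM. All 6 libraries came from this line, and the labels name no other treatment. RNA fragments were treated with CMC or mock-treated, and each was then reverse transcribed in 1 of 3 conditions, which were HIV reverse transcriptase (HIV RT) with magnesium, SuperScript III with manganese and SuperScript III with magnesium. Each combination had 1 library, so no difference below has a replicate check, and a test compares 2 libraries and not 2 treatments.

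Pseudouridine is an isomer of uridine whose base is joined to the ribose through carbon, and in rRNA it is made at sites chosen by box H/ACA guide RNAs. It still pairs like uridine and is silent in ordinary sequencing. CMC is a carbodiimide that attaches a bulky group to uridine, guanosine and Ψ, and its adduct on Ψ is the most stable. A reverse transcriptase that meets the group either stops, or crosses it and sometimes inserts another base. m3U carries a methyl group on the face of the base that pairs, so it can be misread with no chemical at all. A 2′-O-methyl group sits on the ribose and leaves the pairing face free.

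The whole stretch is printed first because the listed positions are crowded within it. Capitals mark the 11 Ψ and the m3U, and T stands for U as in the tables.
28S 4491 to 4700: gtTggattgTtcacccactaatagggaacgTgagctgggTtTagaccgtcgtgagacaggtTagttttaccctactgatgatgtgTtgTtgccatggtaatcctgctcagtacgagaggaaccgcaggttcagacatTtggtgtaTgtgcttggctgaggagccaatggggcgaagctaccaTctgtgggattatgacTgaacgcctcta

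The following windows of 15 nt show the sites that differed most in how they were read, with only the named site in capitals. With HIV RT the first 3 gave the largest changes in mutation among the Ψ and the next 3 the largest changes in stops, and the last is the methylated uridine.
Ψ4521: gggaacgTgagctgg
Ψ4579: tgtgttgTtgccatg
Ψ4628: cagacatTtggtgta
Ψ4532: ctgggttTagaccgt
Ψ4500: tggattgTtcaccca
Ψ4552: gacaggtTagtttta
m3U4530: agctgggTttagacc

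The mutation share of a position is the percent of the reads crossing it that carried another base. The stop share is the number of stops over the sum of stops and crossing reads, in percent. A change is CMC minus mock in percentage points (points), and its bracketed range is the 95% Newcombe interval. Counts of each CMC library were set against its mock library by Fisher's exact test (two-sided), and the Benjamini-Hochberg adjustment ran over every tested position of 18S and 28S. A position was called risen or fallen when the adjusted p was under 0.05 and the change was at least 5 points. All 210 positions had the required 100 crossing reads in every library. Median crossing reads per position of the stretch ranged from 51886 to 56861 in the CMC libraries and from 193010 to 314592 in the mock libraries. The lowest was 14143, at Ψ4576 in the SuperScript III magnesium library with CMC. Wilson 95% intervals were at most ±0.627 points for a mutation share and ±0.582 points for a stop share. The intervals cover counting error only, because each group has 1 library. When no molecular identifiers are used, PCR copies cannot be told from separate molecules, and the intervals are then too narrow even for counting error.

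With CMC, stops rose along the stretch at more positions than mutation did. With HIV RT the stop share rose at 32 of 210 positions (15.2%), with SuperScript III and manganese at 32 (15.2%), and with SuperScript III and magnesium at 35 (16.7%). The shares over both rRNAs were 10.1%, 8.38% and 9.22%. Mutation rose at 5 positions with HIV RT (2.38%), at 6 with manganese (2.86%) and at 1 with SuperScript III and magnesium (0.476%), against 1.05%, 1.29% and 0.159% over both rRNAs. The stretch is rich in U, and among its 59 U alone the stop share rose at 39.0%, 23.7% and 37.3%, against 37.7%, 26.3% and 43.8% of all U in both rRNAs. Thus its share of risen stops lay above the background over all bases and near or below it over U. For mutation the shares among U were 8.47%, 8.47% and 1.69%, against 5.81%, 5.90% and 0.521%.

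Stops fell at 9 positions with HIV RT, 6 of them G, and at 4 positions in each SuperScript III condition. The background of falls was 3.66% for HIV RT, 1.98% for manganese and 1.84% for SuperScript III with magnesium. A fall in mutation was called at m3U4530 with HIV RT and at no other position of the stretch in any condition, where the background was 0.101%, 0.332% and 0.0868%.

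**Figure D1:**
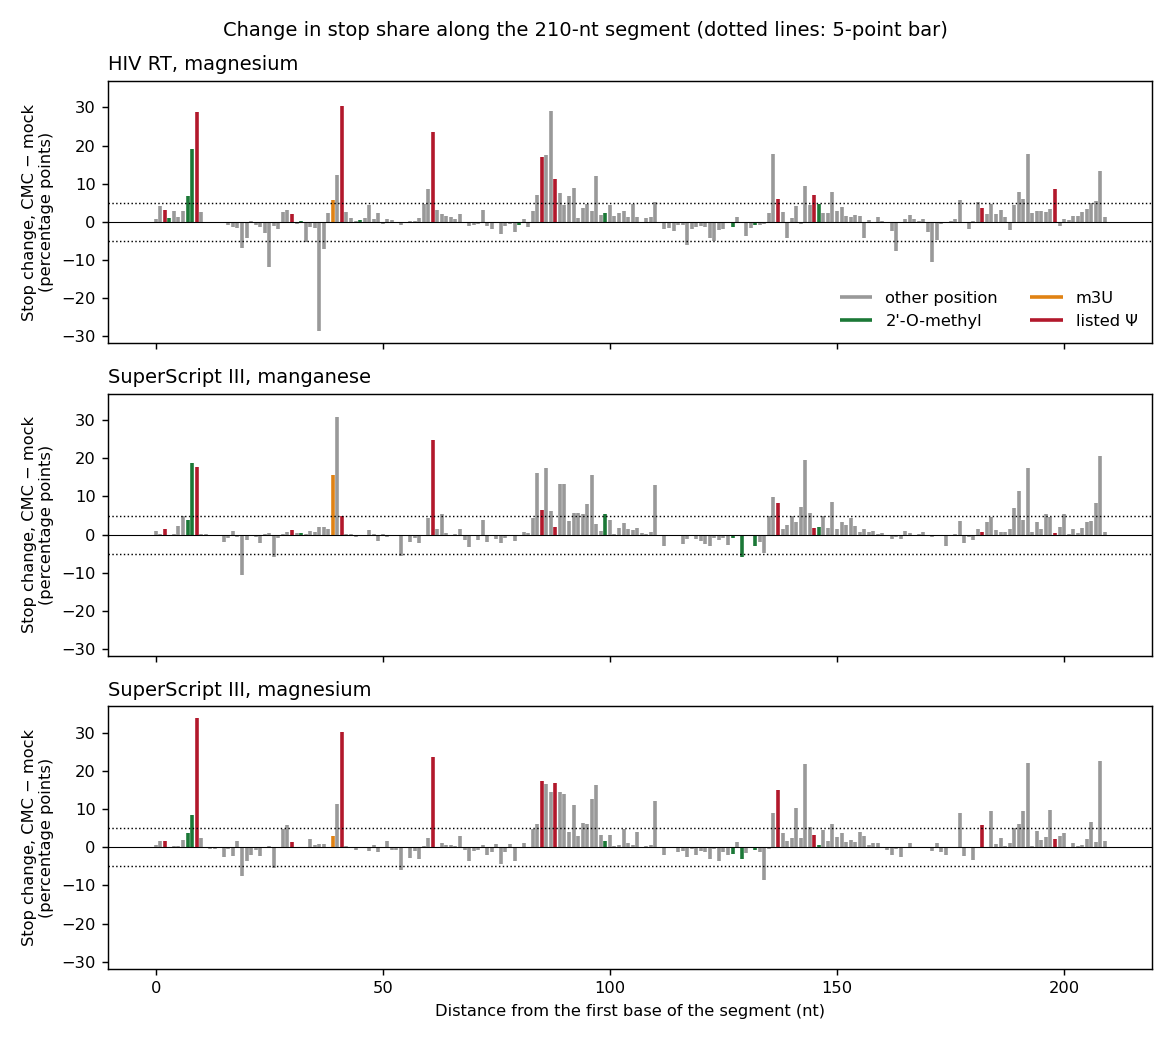
Change in stop share, CMC minus mock in percentage points, at each of the 210 positions against the distance in nt from the first base, with 1 panel per reverse transcription condition and 1 library per treatment. Colours mark listed Ψ, m3U and 2′-O-methylated positions. The tallest rise is at Ψ4532 with HIV RT (30.4 points), at the unlisted U4531 with manganese (30.9) and at Ψ4500 with SuperScript III and magnesium (33.8), and G4527 with HIV RT fell by 28.7 points, the deepest fall.

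Of the 11 Ψ, 10 were called for mutation or stops in at least 1 condition, and Ψ4493 for neither. That count pools 2 measures and 3 conditions, and it was not made for other positions. Stops were called at 8 of the 11 Ψ with HIV RT, 4 with manganese and 7 with SuperScript III and magnesium. Among the 45 U with no listed modification they were called at 13, 9 and 15. Mutation was called at 4, 4 and 1 Ψ, and at 1, 1 and 0 of those U. Of the Ψ, mutation was called in 3 conditions at 1 site, in 2 conditions at 1, in 1 condition at 4 and in 0 conditions at 5. Stops were called in 3 conditions at 4 sites, in 2 at 2, in 1 at 3 and in 0 at 2. Over the 11 Ψ the mutation change had a median of 2.32 points for HIV RT, 3.24 for manganese and 0.434 for SuperScript III with magnesium. It was 0.806, 0.679 and 0.124 over the 45 U of the stretch with no listed modification. The median stop change over the 11 Ψ was 8.55, 2.004 and 15.1 points, against 2.92, 3.10 and 3.79 at those U. In the manganese condition the median stop change of the listed sites was therefore below that of the other U. In all U outside the stretch, where other Ψ are included, the median stop changes were 3.23, 1.35 and 4.03 points and the median mutation changes 0.957, 0.765 and 0.137 points.

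The largest mutation changes with HIV RT were at Ψ4521, Ψ4579 and Ψ4628. Ψ4521 lies between G bases, and its mutation share was 22.7% with CMC and 0.435% in the mock library for HIV RT. It was 11.1% and 0.0988% for manganese, and 16.8% and 0.0566% for SuperScript III with magnesium. Its change ranked 1 of 59 U in each condition. The changes differed between conditions beyond their counting intervals, though each rests on 1 pair of libraries. HIV RT exceeded manganese by 11.2 points (95% interval 10.7 to 11.8), and manganese minus magnesium with SuperScript III was -5.77 points (-6.29 to -5.25). It was the only listed Ψ at which manganese gave less mutation than magnesium with the same enzyme, since the order was the other way at the other 10 of 11. Its stop change stayed under the 5-point bar in all 3 conditions. The base next to it on the 5′ side, G4520, rose in stops by 5.73 points with SuperScript III and magnesium, and was not called in the other conditions (3.09 and 0.691 points).

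Ψ4579 ranked 2 of 59 U for mutation in all 3 conditions. Its mutation share was 13.5% with CMC and 1.16% in the mock library for HIV RT, 10.4% and 0.413% for manganese, and 3.48% and 0.0865% for SuperScript III with magnesium. The last rise, 3.39 points (3.15 to 3.65), was under the bar. Its stop share went from 1.42% to 12.6% with HIV RT, from 0.479% to 2.48% with manganese and from 0.323% to 17.1% with SuperScript III and magnesium. Of the SuperScript III libraries, the one with manganese thus had more wrong bases and fewer stops at this Ψ than the one with magnesium. The mutation change was 6.57 points larger with manganese than with magnesium for SuperScript III (6.15 to 6.98), while for stops the same difference was -14.8 points (-15.3 to -14.3). Its 3′ neighbours differed less in stops between these conditions. U4580 rose by 13.4 points with manganese and 14.4 with magnesium, and G4581 by 13.2 and 14.1. With stops read 1 nt 3′, the Ψ4579 change with manganese was 13.4 points and was called. Which position gave each stop was not tested.

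Ψ4628 lies within a run of uridines. Its mutation share with CMC was 8.15% for HIV RT, 2.34% for manganese and 0.826% for SuperScript III with magnesium, against 0.863%, 0.0615% and 0.0463% in the mock libraries. The HIV RT rise of 7.29 points (7.01 to 7.58) was the only one called. Its stop share with CMC was 7.95%, 10.8% and 17.0%, against 1.88%, 2.58% and 1.88% in the mock libraries, and the rise was called each time. U4627 beside it, which has no listed modification, reached a mutation share of 7.17% with HIV RT from 0.434%, a change of 6.74 points. The U4627 changes were smaller with manganese, where the share was 2.27%, and with SuperScript III and magnesium, where it was 0.800%. The stop changes of U4627 were 17.8, 9.75 and 9.12 points, so with HIV RT and manganese they were larger than those of Ψ4628 itself, 6.07 and 8.20.

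**Figure D2:**
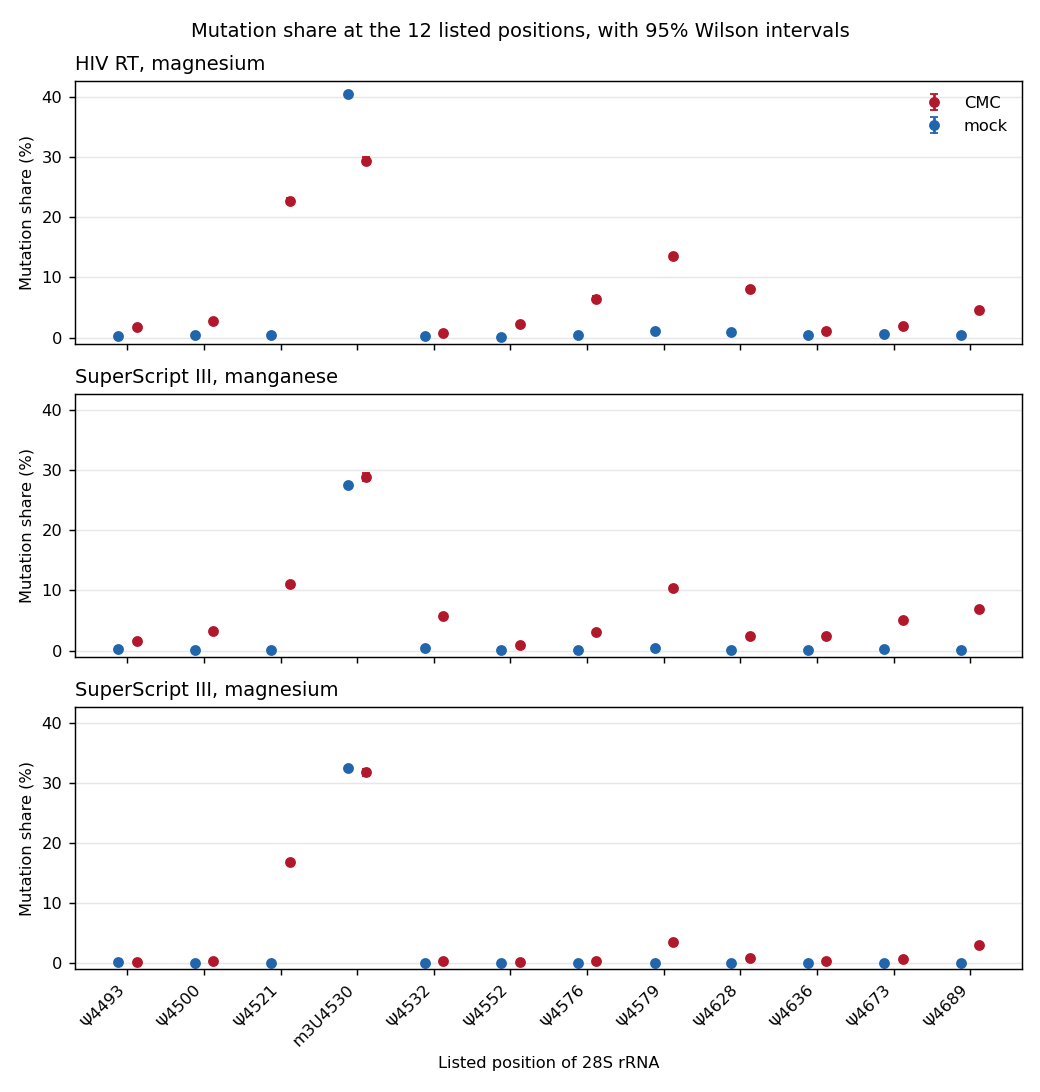
Mutation share in percent at the 11 Ψ and m3U4530, 1 panel per condition, with red points for the CMC library, blue points for the mock library and 95% Wilson intervals, often smaller than the point. Mock shares of the 11 Ψ are at most 1.16%, while m3U4530 lies between 27.4% and 40.5% in the mock libraries.

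Among the listed Ψ, the largest stop changes with HIV RT and with SuperScript III and magnesium were at Ψ4532, Ψ4500 and Ψ4552, where at most 2.74% of crossing reads in those libraries carried another base. Ψ4532, 2 nt downstream of the m3U, stopped 31.7% of reads with CMC and 1.30% in the mock library for HIV RT. With manganese the values were 5.20% and 0.294%, and with SuperScript III and magnesium 30.5% and 0.366%. The changes with HIV RT (30.4 points) and with SuperScript III and magnesium (30.1) did not differ beyond counting error, while the manganese change of 4.90 points (4.64 to 5.18) missed the bar. With manganese its mutation share was 5.70% against 0.358%, and that change of 5.34 points (5.06 to 5.64), close in size to the stop change, was called. Its mutation change was 0.546 points with HIV RT and 0.281 with SuperScript III and magnesium.

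Ψ4500, in the A loop, stopped 31.4%, 18.8% and 36.5% of reads with CMC for HIV RT, manganese and SuperScript III with magnesium, against 2.61%, 1.15% and 2.72% in the mock libraries. Its mutation changes were 2.32, 3.24 and 0.291 points, none called. Ψ4552, before an A like Ψ4532, was stopped at nearly alike in all 3 conditions. Its stop shares with CMC were 25.6%, 28.4% and 27.6%, against 1.98%, 3.50% and 3.83%. It was also the only Ψ of the 11 with a larger stop change for manganese (24.9 points) than for magnesium (23.8) with SuperScript III. Ψ4576 changed in stops by 17.0 points for HIV RT, 6.44 for manganese and 17.3 for SuperScript III with magnesium, and in mutation by 6.09, 2.96 and 0.434 points.

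Each of the other 4 Ψ was called in at most 1 condition per measure. Ψ4636 was called for stops with HIV RT alone, at 10.3% with CMC and 3.13% in the mock library, and its changes with manganese and with SuperScript III and magnesium were 1.79 and 3.31 points. Ψ4673 was called for stops with SuperScript III and magnesium, at 8.11% and 2.17%. Its mutation change with manganese was 4.83 points (4.67 to 5.00), just under the bar. Ψ4689 rose in stops with HIV RT, from 1.42% to 9.97%, and in mutation with manganese, from 0.0822% to 6.83%. Its stop change with manganese, 0.429 points, was the smallest of the 11, and the mutation change at the site was larger, 6.75 points. Beside it, stops with manganese rose at A4687 (5.36 points) and A4691 (5.38), and changed by 4.72 points at C4688 and 1.91 at G4690. Which position gave each stop was not tested. Ψ4493 had stop changes of 3.16, 1.44 and 1.73 points, from mock shares of 0.270%, 0.279% and 0.534%. Its mutation changes were 1.37 and 1.32 points with HIV RT and manganese. All of these changes passed the test and missed only the bar. In the libraries of SuperScript III with magnesium the mutation shares were 0.173% with CMC and 0.178% in the mock library (adjusted p = 0.903, Fisher's exact test).

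Across the 11 Ψ the conditions differed in which signal they gave. Mutation changes were larger with HIV RT than with SuperScript III and magnesium at 11 of 11 sites (median difference 1.87 points). They were larger with manganese than with magnesium for SuperScript III at 10 of 11 (median 2.53 points). HIV RT and manganese split, with HIV RT larger at 6 of 11 and a median difference of 0.0505 points. Stop changes were larger with HIV RT than with manganese at 9 of 11 sites (median 5.34 points), and larger with manganese than with magnesium for SuperScript III at 1 of 11, Ψ4552. HIV RT and SuperScript III with magnesium split, with HIV RT larger at 5 of 11. The mutation change exceeded the stop change at 3 Ψ with HIV RT, 6 with manganese and 2 with SuperScript III and magnesium.

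**Figure D3:**
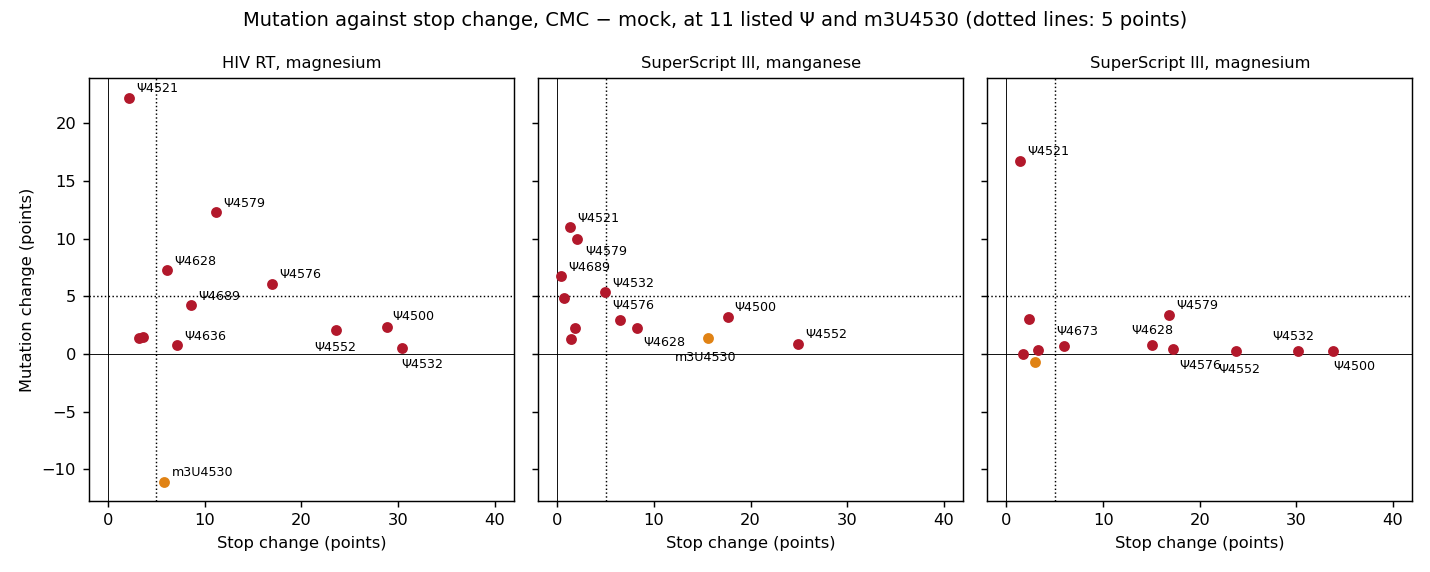
Mutation change against stop change, both CMC minus mock in percentage points, for the 11 Ψ (red) and m3U4530 (orange) in each condition, with sites past 5 points on either axis named. Ψ4521 lies high at the left in every panel with a mutation change between 11.003 and 22.2 points, and Ψ4500, Ψ4532 and Ψ4552 lie low at the right with HIV RT and with SuperScript III and magnesium.

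The base on the 3′ side, which the enzyme copies first, sorted the 11 Ψ as follows. The 4 Ψ before G (Ψ4493, Ψ4521, Ψ4636 and Ψ4689) had stop changes of at most 8.55 points for HIV RT, 1.79 for manganese and 3.31 for SuperScript III with magnesium. The 4 before U (Ψ4500, Ψ4576, Ψ4579 and Ψ4628) ranged from 6.07 to 28.8, from 2.004 to 17.6 and from 15.1 to 33.8 points. The 2 before A, Ψ4532 and Ψ4552, had 30.4 and 23.6 points with HIV RT and 4.90 and 24.9 with manganese. With SuperScript III and magnesium they had 30.1 and 23.8. The single Ψ before C, Ψ4673, had 3.62, 0.711 and 5.94 points. In the 2 SuperScript III conditions the stop changes of the sites before G and before U do not overlap, and with HIV RT they do. With manganese the counting intervals of the 2 nearest sites do overlap, Ψ4636 (1.66 to 1.93) and Ψ4579 (1.84 to 2.18). With stops read 1 nt 3′ the groups overlapped in both SuperScript III conditions. Among the 19 unlisted U before G the median stop changes were 2.92, 3.10 and 4.10 points, and among the 11 before U 2.91, 1.51 and 1.96 points, so the unlisted U before G were not the lower ones. These unlisted groups overlapped in every condition, reaching 17.6, 17.4 and 16.6 points before G and 17.8, 30.9 and 11.4 before U. The 10 unlisted U before A had median stop changes of 5.50, 3.68 and 10.5 points, the highest of the unlisted groups in each condition. All these sites are few and share their libraries, and no test was made.

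The wrong base read at Ψ was mostly C. Over the mismatched reads of all 11 Ψ with CMC, C made up 58.8% with HIV RT, 70.0% with manganese and 76.2% with SuperScript III and magnesium, and was the most frequent wrong base at 10, 10 and 9 of the 11. Ψ4628 was read mostly as A, which formed 53.9%, 49.9% and 65.7% of its wrong bases with CMC and 28.6%, 38.2% and 22.1% in the mock libraries. At Ψ4521 A formed 41.1%, 35.9% and 28.02% with CMC and G at most 2.22%, so almost all its wrong bases were C or A. At Ψ4579 C formed 76.8%, 65.2% and 88.3%.

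m3U4530 was misread without CMC. Its mutation share in the mock libraries was 40.5% for HIV RT, 27.4% for manganese and 32.4% for SuperScript III with magnesium, the highest of the 210 positions each time. The next highest mock share was 3.87% (U4512, HIV RT), 4.16% (G4647, manganese) and 1.75% (G4516, SuperScript III and magnesium). Its wrong base was A in 64.0%, 75.9% and 54.7% of mismatched mock reads and G in 24.2%, 22.2% and 43.7%, while C formed 11.8%, 1.92% and 1.64%. Over the mismatched mock reads of the 11 Ψ, C formed 43.1%, 54.7% and 53.1%, and it was the most frequent wrong base at 7, 10 and 9 of the 11 sites. Few mock reads stopped there, 1.10%, 2.15% and 2.03%.

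With CMC the mutation share of m3U4530 was 29.4%, 28.9% and 31.7%. It thus fell by 11.1 points with HIV RT (-11.7 to -10.4) and changed by 1.42 points with manganese (0.770 to 2.08). With SuperScript III and magnesium it changed by -0.659 points (adjusted p = 0.0693, Fisher's exact test). The stop share of m3U4530 rose to 6.91% with HIV RT and 17.7% with manganese, and was 4.99% with SuperScript III and magnesium, where the change of 2.97 points was under the bar. U4531 lies between the m3U and Ψ4532. Its stop share rose from 1.05% to 13.3% with HIV RT, from 3.59% to 34.5% with manganese and from 3.32% to 14.7% with SuperScript III and magnesium. Its mutation share stayed at or below 0.394% in all 6 libraries. In the manganese condition the stops at m3U4530 and U4531 (15.6 and 30.9 points) were thus larger than that at Ψ4532 itself (4.90), and in the other conditions they were smaller than that at Ψ4532. Which of the 3 neighbouring uridines gave each stop was not tested.

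Just 5′ of the m3U, the HIV RT mock library stopped often at G4527 and G4528. G4527 had a stop share of 32.1% in the HIV RT mock library, the highest of the stretch in that library, and 3.34% with CMC, so it fell by 28.7 points. In the SuperScript III libraries its stop share was 0.266% (mock) and 2.28% (CMC) with manganese, and 0.479% and 1.43% with magnesium. G4528 went from 10.1% to 2.94% with HIV RT, from 1.25% to 3.12% with manganese and from 1.34% to 2.20% with SuperScript III and magnesium. The falls of both G were called with HIV RT, and no fall was called with SuperScript III. Crossing reads at m3U4530 were 446633 in the HIV RT mock library and 20896 in its CMC library. Whether the mock stops of the HIV RT library move with the mutation share of m3U4530 was not tested.

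Other falls were scattered along the stretch. A4510 was the only position whose stops fell in all 3 conditions, from 9.85% to 2.90% with HIV RT, from 14.6% to 3.96% with manganese and from 9.76% to 2.26% with SuperScript III and magnesium. G4516 (14.9% to 3.17%), C4662 (18.1% to 7.62%) and C4654 (12.8% to 5.21%) fell with HIV RT. So did G4524 (8.50% to 3.28%), G4608 and G4614. A4517 and G4545 fell in both SuperScript III conditions, with changes of -5.78 and -5.66 points for manganese and -5.43 and -5.90 points for magnesium. C4625 fell with SuperScript III and magnesium, from 12.5% to 3.98%. Other high mock stop shares were 10.3% at G4647 with HIV RT, 12.8% at U4555 with manganese and 10.3% at A4655 with SuperScript III and magnesium. Besides m3U4530, high mock mutation shares were 3.20% at C4615, 3.13% at C4598 and 2.68% at A4511 with HIV RT, 3.72% at C4667 and 3.35% at A4622 with manganese, and 1.47% at C4537 and 1.38% at G4600 with SuperScript III and magnesium.

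Calls shared by all 3 conditions were counted in the stretch only. Whether their number exceeds the background, over all bases or over U, was therefore not tested. Stops rose in all 3 conditions at 18 positions. Of these, 4 were Ψ (Ψ4500, Ψ4552, Ψ4576 and Ψ4628), 8 were U with no listed modification, 2 were unlisted G, 2 unlisted C, 1 unlisted A and 1 the methylated Gm4499. Among the U were U4634, U4683 and U4699, which lie before A. U4683 stopped 21.4%, 30.3% and 33.4% of reads with CMC, against 3.57%, 12.9% and 11.2% in the mock libraries. U4699 stopped 15.8%, 25.5% and 27.8%, against 2.43%, 4.89% and 5.33%. U4634 stopped 14.3%, 24.9% and 30.7%, against 5.03%, 5.46% and 8.82%. With SuperScript III and magnesium these 3 U had larger stop changes than 8 of the 11 Ψ. With manganese U4699 (20.6 points) and U4634 (19.5) exceeded all Ψ but Ψ4552, and U4683 (17.4) all but Ψ4500 and Ψ4552. Their mutation shares with CMC were at most 2.18% in any library.

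The longest run of neighbouring positions with risen stops lay around Ψ4576 and Ψ4579. It covered 4575 to 4580 with HIV RT (6 positions, 7.09 to 29.2 points) and 4575 to 4581 with SuperScript III and magnesium (7 positions, 6.04 to 17.3 points). With manganese the longest run was 4583 to 4587 (5 positions, 5.34 to 15.7 points). Between the 2 Ψ, U4577 rose by 17.6, 17.4 and 16.6 points and G4578 by 29.2, 6.19 and 14.4 points. Further 3′, U4588 rose by 11.95 and 16.3 points with HIV RT and with SuperScript III and magnesium, and changed by 2.73 points with manganese. G4578 was the largest rise at any G of the stretch with HIV RT. In a run this dense, a change at 1 position also alters which reads reach the next, and the shares of its members were not separated.

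The 2′-O-methylated positions changed little in the median, and the largest changes among them were beside Ψ4500. Over the 11 the median mutation change was 0.000762 points for HIV RT, 0.261 for manganese and 0.0672 for SuperScript III with magnesium, and the median stop change 0.580, -0.0669 and -0.0173 points. Gm4499, next to Ψ4500 on the 5′ side, rose in stops in all 3 conditions, to 20.1%, 23.3% and 9.93% from 0.907%, 4.42% and 1.35%. With manganese this rise was 18.9 points, beside 17.6 at Ψ4500 itself. Um4498 rose to 7.66% from 0.759% with HIV RT, and Am4590 to 7.63% from 2.25% with manganese. Um4620 fell with manganese, from 7.06% to 1.33%. The remaining 7, Gm4494, Am4523, Cm4536, Am4571, Gm4618, Gm4623 and Gm4637, were called for neither measure in any condition.

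In the sarcin-ricin loop, U4601 directly before the printed motif was called for stops in all 3 conditions. Its stop share went from 2.95% to 8.24% with HIV RT, from 9.28% to 22.4% with manganese and from 11.2% to 23.2% with SuperScript III and magnesium. A4605, the adenosine that ricin depurinates, had mock mutation shares of 1.42%, 3.45% and 1.48%, and shares with CMC of 0.712%, 1.84% and 0.543%. It was among the 5 highest mock mutation shares of the stretch in both SuperScript III libraries. None of the changes at A4605 reached the bar. At G4608, the last base of the motif, a fall in stops was called with HIV RT alone.

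A further pair of positions, both near Ψ4628 and neither a listed modification, rose in mutation with manganese. G4630 went from 1.18% to 7.83% and U4632 from 0.104% to 5.38%. With HIV RT the mutation share of G4630 was 1.14% in the mock library and 1.36% with CMC, and that of U4632 0.827% and 4.48%.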

How the data were processed

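Total RNA over 200 nt was fragmented, treated with CMC or mock-treated, and reverse transcribed, per the labels' protocols. Per the submitters' processing notes, reads passed through Trimmomatic 0.32 and Bowtie 1.0, with settings, allowed mismatches and reference not given in the sources used here. HIV RT tables carry another name form, and whether they were processed alike is not given either. Per the file headers, the authors deposited for each position the count of crossing reads in all and by base, a stop column, and the mismatch rate and stop frequency as a fraction. The stop column holds whole numbers of ended reads (other unit, deposited without scaling). No genome build applies, and positions follow the rRNA sequences in the tables.

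Shares were recomputed from these counts with scipy 1.17.1 and pandas 2.3.3, with no normalization. Ended reads per library ranged from 21206954 to 47002169. Each position was tested between CMC and mock by Fisher's exact test (two-sided), Benjamini-Hochberg adjusted over 6912 to 6935 positions, and called at an adjusted p under 0.05 and 5 points. Intervals of differences between conditions are normal 95% intervals. The calls were run on simulated binomial counts with no spread between libraries, which cannot show how often 2 real libraries differ. A stop was taken to stand at the base not copied, an assumption on which the stop share of each position rests. Alternatives were other bars, 1000 crossing reads, no test, stops read 1 nt 3′ and only C as a mismatch.

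The listed positions came from general knowledge. The text names all of them, per condition and measure the 5 largest rises and 3 largest falls among called unlisted positions, the 5 highest mock shares, and the positions called in all 3 conditions (or the 6 with the largest mean change). Neighbours of Ψ within 2 nt, positions near them, members of runs and the remaining called falls in stops were named after their values were seen. The members and lists were chosen with earlier results of these data known.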

Additional observations from a re-analysis of the deposited data

Results flagged for a closer look

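At 3 positions within 4 nt of each other, a called fall with HIV RT met a change of at least 1 point in the opposite direction with manganese. Each direction rests on 1 pair of libraries. The mutation change of m3U4530 was -11.1 points with HIV RT and 1.42 points with manganese, and the difference of -12.5 points has a counting interval from -13.4 to -11.6. G4527 changed in stops by -28.7 points with HIV RT and 2.01 points with manganese. G4528 changed in stops by -7.12 and 1.87 points. For both G the difference itself was not tested. None of the opposite changes reached 5 points.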

How the results depend on the processing

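No paired analysis was possible because each comparison, made within a condition, has 1 library per group. A fit of the mean change with the 3 conditions as blocks was not run. Values are in the order HIV RT, manganese, SuperScript III with magnesium. Raising the minimum to 1000 crossing reads could remove no position of the stretch, where the lowest count was 14143. It changed no count, median or site change. Dropping the test, which was run for the counts only, changed no count, because at these depths every change of 5 points also passed the test. Neither setting therefore checks the calls. With a bar of 2 points, mutation rose at 18, 28 and 3 positions and stops at 81, 63 and 65. Stops fell at 23, 17 and 22, and mutation fell at 4 with HIV RT and 1 with manganese. Listed Ψ with risen mutation were then 7, 9 and 3, and those with risen stops 11, 6 and 9. With a bar of 10 points, mutation rose at 2, 1 and 1 positions, and stops rose at 13, 15 and 19 and fell at 3, 1 and 0. Of the listed Ψ, 2, 1 and 1 then rose in mutation, and 5, 2 and 6 in stops.

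Reading stops 1 nt further 3′ left 2, 2 and 2 listed Ψ with risen stops and medians of 2.68, 1.45 and 0.673 points. Ψ4689 with HIV RT became -1.09 and Ψ4552 with SuperScript III and magnesium -0.0126 points, 14 site calls were lost, these included, and 2 gained. The 2 gained were Ψ4579 with manganese (13.4 points) and m3U4530 with SuperScript III and magnesium (11.4). Counting only C as a mismatch gave median mutation changes of 1.65, 2.47 and 0.200 points, and 3 site calls were lost: m3U4530 (-1.70) and Ψ4628 (2.47) with HIV RT, and Ψ4532 (4.80) with manganese. The cause was not tested. Some counting intervals reach across the 5-point bar, such as that of the stop change at Ψ4532 with manganese (4.64 to 5.18), and 1 library per group shows no spread between preparations.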

Other observations

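The order of the uridines was alike between conditions for stops. For mutation it was less alike in the pairs with HIV RT, and about as alike between manganese and magnesium with SuperScript III. Over the 59 U of the stretch, Spearman's rho of the stop changes was 0.809 between HIV RT and manganese, 0.799 between manganese and magnesium with SuperScript III, and 0.823 between HIV RT and SuperScript III with magnesium. For mutation it was 0.593, 0.792 and 0.573. These values describe positions of 1 molecule read in shared libraries, so no p is given.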
